A study of Mus musculus with 4 samples.

Results

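Chkb, Chka, Etnk1, Pcyt2, Pcyt1a and Cept1, enzyme genes of phosphatidylcholine and phosphatidylethanolamine synthesis, and Cpt1b, the gene next to Chkb, were read at every probe that the platform annotation assigns to them: 14 of the 46632 probes of the array, for 7 of 17711 named genes. The samples were tumours of B16-F10-luc-G5, a mouse melanoma line with a luciferase reporter, dissected 10 days after injection under the abdominal skin of 2 VAP-1 knockout mice (replicates 1 and 2) and 2 wild-type mice (replicates 2 and 3). VAP-1, the amine oxidase encoded by Aoc3, was absent by label from the host, while both groups received the same tumour line, and the comparison addresses what a host without VAP-1 changes in the tumour. Neither strain, age and sex of the mice nor the kind of knockout allele is stated in the labels. One Illumina bead array was hybridised per tumour. The genes were chosen by the knockout minus wild type differences of these arrays (Chkb first, with its pathway and its neighbour added), so those differences are given below as a description and are not tested.

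Cells make their main membrane phospholipids from choline and ethanolamine along the Kennedy pathway. A kinase phosphorylates the head group, a cytidylyl transferase activates it with CTP, and a phosphotransferase joins it to diacylglycerol. The activation step is usually the slowest one in each branch. Choline kinase alpha is often raised in human tumours, whereas choline kinase beta is best known from mice that lose it and develop a muscular dystrophy. Cpt1b encodes carnitine palmitoyltransferase 1B, the form of muscle and brown fat, which admits long-chain fatty acids to mitochondria for oxidation and has no step in phospholipid synthesis.

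Unnormalized signal had medians of 64.81 and 68.27 on the knockout arrays and of 63.34 and 55.31 on the wild-type arrays. Values below are log2 signals after background correction and quantile normalization between the 4 arrays, on a scale from 5.65 to 14.72. Probes with a mean above 6.07, the 40th percentile, were kept for the fit, 27979 in all. Differences are knockout minus wild type with the standard error (SE) of a limma fit over these probes, n = 2 tumours each. The fit called 0 probes at an adjusted p under 0.05, where the smallest adjusted p was 0.102, and 4582 at an unadjusted p under 0.05. Aoc3 did not check the labels: its brighter probe read 7.27 and 7.14 on the knockout arrays and 7.98 and 7.16 on the wild-type arrays, and the labels do not say which part of the gene it reads. The melanocyte genes Mlana (14.56 and 14.63 in knockout tumours, 14.43 and 14.62 in wild-type tumours) and Dct (14.62 and 14.38, against 14.49 and 14.43) were near the top of the scale on every array, as was Pmel (14.31 and 14.22, against 14.10 and 13.97). RNA came from whole tumours, so a change in the number of cells of a type and a change in RNA per cell cannot be told apart.

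All 3 Chkb probes were higher in knockout tumours, by 2.33- to 2.64-fold, while Chka, which encodes the other choline kinase, differed by 1.03- to 1.45-fold over its 3 probes. The Chka probes lay near the floor of the scale, where a difference is compressed, so the folds of the paralogs cannot be compared like for like. The 250 bases upstream of the annotated start of each gene are shown because they are the choline kinase pair whose levels follow. The sequences are RefSeq's for build GRCm38.p6, written 5′ to 3′ on the strand of the gene, and capitals mark the CCAAT box, the GC box and the TATA box, spelled out after them, on either strand. Chkb lies on the minus strand at chr15:89429928-89430177 and Chka on the plus strand at chr19:3851523-3851772.
Chkb: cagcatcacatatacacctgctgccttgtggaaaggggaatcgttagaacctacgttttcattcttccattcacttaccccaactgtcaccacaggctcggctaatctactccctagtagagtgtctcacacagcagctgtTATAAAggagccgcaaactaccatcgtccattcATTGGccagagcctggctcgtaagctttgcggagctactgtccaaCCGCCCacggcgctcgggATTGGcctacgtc
Chka: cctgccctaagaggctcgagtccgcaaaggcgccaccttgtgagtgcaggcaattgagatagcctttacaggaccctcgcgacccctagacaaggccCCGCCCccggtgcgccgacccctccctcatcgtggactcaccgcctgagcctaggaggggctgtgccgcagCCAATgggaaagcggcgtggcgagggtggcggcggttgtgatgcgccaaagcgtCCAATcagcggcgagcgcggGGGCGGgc
CCAAT, the letters of the CCAAT box, occurred 2 times in each window, on the reverse strand in Chkb (76 and 13 bases before the start) and on the forward strand in Chka (82 and 28 bases before it). GGGCGG, the GC box, occurred 1 time in Chkb and 2 times in Chka. TATAAA, the TATA box, stood 109 bases before the start in Chkb and was not in the Chka window, and neither window held TGACGT or the letters CACGTG. Of 32851 promoter windows of this length, 33.8% held CCAAT on either strand and 32.7% held GGGCGG. The shares were 12.4% for TATAAA, 6.47% for TGACGT and 6.02% for CACGTG, and no 2 marked matches overlap. The Chka window was 68% G or C and the Chkb window 52.4%. A match is a description of letters and says nothing of a factor bound there. RefSeq promoter windows were also matched for Pcyt1a, Cept1 and Etnk1, 5 of the 7 genes, and are not shown.

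Chkb encodes choline kinase beta, which phosphorylates choline and, less readily, ethanolamine. Its brightest probe (ILMN_2755021) read 10.85 and 10.80 in knockout tumours and 9.45 and 9.40 in wild-type tumours. The second (ILMN_2732326) read 10.57 and 10.58 in knockout tumours and 9.22 and 9.22 in wild-type tumours. The third (ILMN_2622560) read 9.82 and 9.85 in knockout tumours and 8.59 and 8.64 in wild-type tumours. On each probe both knockout arrays lay above both wild-type arrays, and arrays of the same group lay within 0.05 of each other. The median gap over all kept probes was 0.11 between the knockout arrays and 0.17 between the wild-type arrays. The differences were 1.40 ± 0.10, 1.36 ± 0.10 and 1.22 ± 0.10 (SE). Of all kept probes, 0.461% had a larger difference than the first of these and 0.786% a larger one than the last. Before normalization the brightest probe read 1708 and 2321 intensity units on the knockout arrays and 537.7 and 622.4 on the wild-type arrays. The 3 probes are annotated to the same RefSeq mRNA, so they are repeated readings of a gene in the same 4 tumours and not further replicates.

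Chka, the alpha kinase, was dim. Its brightest probe (ILMN_1250008), annotated to a cDNA clone, read 6.84 and 7.01 in knockout tumours and 6.52 and 6.27 in wild-type tumours, a difference of 0.53 ± 0.14. The probe of the RefSeq mRNA (ILMN_2702540) read 6.21 and 6.34 in knockout tumours and 6.08 and 6.20 in wild-type tumours, a difference of 0.14 ± 0.11, and -0.06 after 75th percentile scaling. The third (ILMN_1223847), also of a clone, stayed below the filter, with 5.79 and 6.02 against 5.85 and 5.87. The knockout arrays lay above the wild-type arrays on the first probe, barely above them on the second, and on both sides of them on the third. Signals this close to the floor are compressed: with a smaller background offset (16 in place of 50) the first difference was 0.81.

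**Figure D1:**
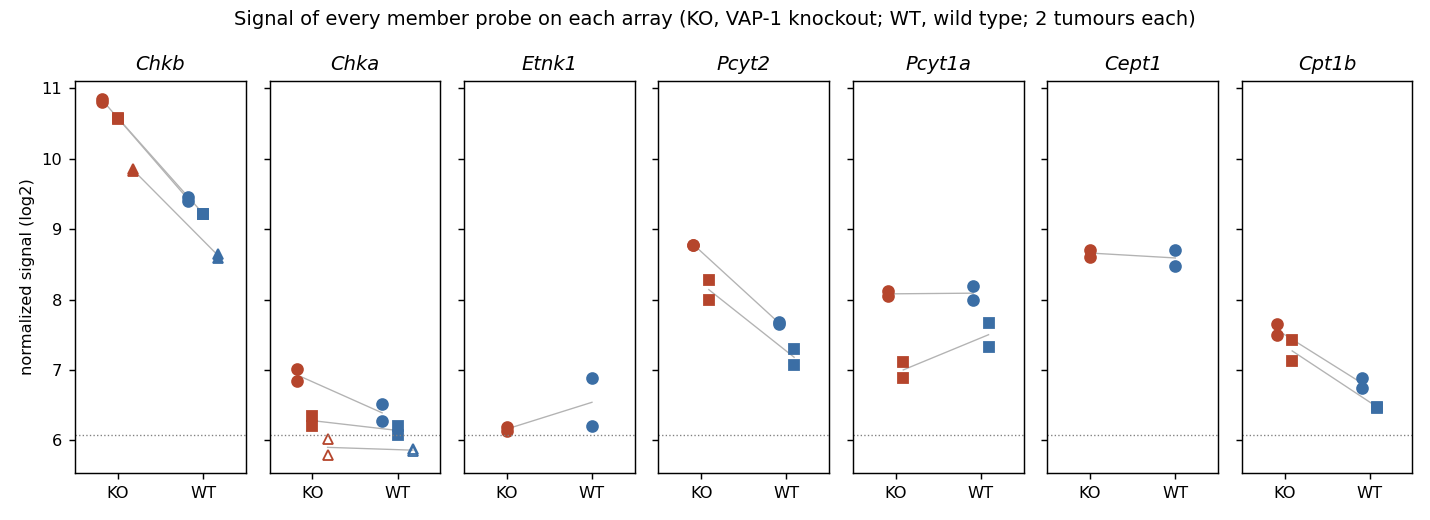
Normalized log2 signal (vertical axis) of each probe on the 2 knockout (KO, red) and the 2 wild-type (WT, blue) arrays, in a panel per gene; marker shapes are different probes, thin lines join group means, open markers are the probe below the filter, and the dotted line is the filter level of 6.07. All Chkb, Pcyt2 and Cpt1b probes have both KO arrays above both WT arrays, while Cept1 and the brighter Pcyt1a probe overlap.

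In the ethanolamine branch, the cytidylyl transferase gene was higher in knockout tumours. The kinase gene, read at a single dim probe, gave no clear direction. Pcyt2, which encodes the CTP:phosphoethanolamine cytidylyl transferase that activates ethanolamine, was higher in knockout tumours at both probes, by 1.94- and 2.16-fold. Its brighter probe (ILMN_2694038) read 8.78 and 8.78 in knockout tumours and 7.68 and 7.65 in wild-type tumours, a difference of 1.11 ± 0.10. The dimmer (ILMN_2597485) read 8.28 and 8.0 in knockout tumours and 7.29 and 7.07 in wild-type tumours, a difference of 0.96 ± 0.15. Both knockout arrays exceeded both wild-type arrays on each probe, and the wider gap within groups was on the dimmer one. Of all kept probes, 1.02% and 1.73% had larger differences than these.

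Etnk1 encodes ethanolamine kinase 1, which starts the branch. Its single probe (ILMN_1242339), annotated to a clone, read 6.13 and 6.19 in knockout tumours and 6.89 and 6.20 in wild-type tumours. Wild-type replicate 2 stood above the other 3 arrays, which were level. The difference of -0.38 ± 0.25 rested on that array, and it was -0.04 without it.

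Pcyt1a, the choline counterpart of Pcyt2, encodes CTP:phosphocholine cytidylyl transferase alpha, the main regulated enzyme of phosphatidylcholine synthesis. Its brighter probe (ILMN_2508424) read 8.12 and 8.05 in knockout tumours and 8.19 and 7.99 in wild-type tumours, a difference of -0.01 ± 0.12. The dimmer (ILMN_2688728) read 6.89 and 7.11 in knockout tumours and 7.67 and 7.32 in wild-type tumours, a difference of -0.50 ± 0.17. The groups overlapped on the brighter probe and were apart, with knockout lower, on the dimmer, so the probes of this gene disagree. Under median scaling of the arrays, with which 4487 probes were higher and 103 lower in the knockout at an unadjusted p under 0.05, they differed by 0.43 and -0.15.

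Cept1 encodes the choline/ethanolamine phosphotransferase, which completes both phospholipids in the endoplasmic reticulum. Its probe (ILMN_2762334) read 8.71 and 8.61 in knockout tumours and 8.48 and 8.70 in wild-type tumours. The groups overlapped, with a difference of 0.07 ± 0.13, and of 0.48 under median scaling. At the last enzyme, as at the brighter Pcyt1a probe, the arrays thus showed no gap between the groups like those of Chkb and Pcyt2.

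Cpt1b was higher in knockout tumours at both probes, by 1.69- and 1.74-fold, less than its neighbour Chkb. Its brighter probe (ILMN_1227666) read 7.65 and 7.49 in knockout tumours and 6.88 and 6.74 in wild-type tumours, a difference of 0.76 ± 0.12. The dimmer (ILMN_2709240) read 7.42 and 7.12 in knockout tumours and 6.46 and 6.48 in wild-type tumours, a difference of 0.80 ± 0.14. Both knockout arrays lay above both wild-type arrays, and knockout replicate 1 was the highest array on both probes. With the smaller background offset the differences were 1.00 and 1.13, since these probes are dim enough to be compressed.

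Of the 13 probes that passed the filter, 9 from Chkb, Chka, Pcyt2 and Cpt1b had both knockout arrays above both wild-type arrays, a pattern of 23.6% of all kept probes. Another 2, of Pcyt1a and Etnk1, had both below, a pattern of 25.6% of all kept probes, and 2 overlapped. Since the genes were proposed from this contrast, nothing is read from these counts.

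**Figure D2:**
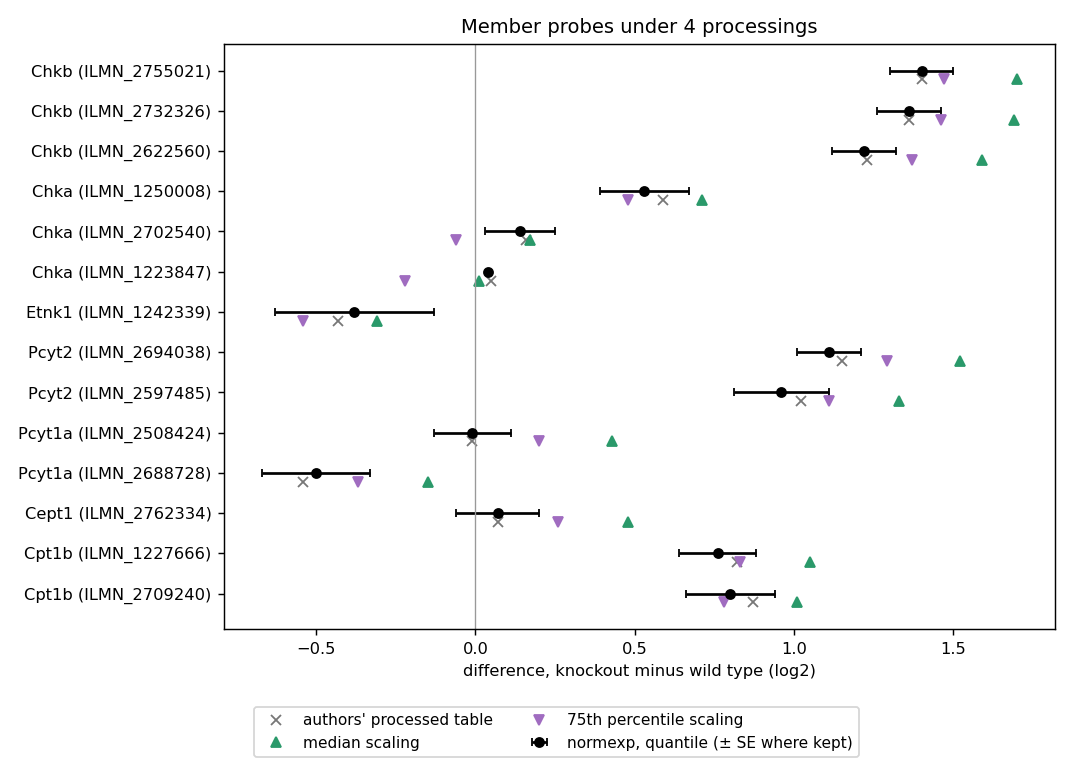
Difference, knockout minus wild type (horizontal axis, log2), of each probe, with rows ordered by gene; black points are the values given here with their SE, crosses the authors' processed table, and triangles other scalings of the arrays. The Chkb, Pcyt2 and Cpt1b probes stay at 0.76 or above in each, while median scaling moves Cept1 and the brighter Pcyt1a probe to 0.48 and 0.43.

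Chkb and Cpt1b lie next to each other on chromosome 15, and the RefSeq gene table holds 1 further gene inside their span, Gm44502, a non-coding read-through transcript also called Chkb-Cpt1b. No probe analysed here carries its name, and the positions of the Chkb and Cpt1b probes were not known, so whether they also bind that transcript cannot be told. Neighbouring genes had smaller differences than the pair. Of the 5 annotated genes on each side, 5 had kept probes, 8 in all, with differences from -0.22 to 0.29, and 0 of the 8 passed in the limma fit, at an adjusted p under 0.05 or at an unadjusted p under 0.05. Of all kept probes, 0% passed the first threshold, while 9.26% were higher and 7.12% lower at the second. On the Chkb side, the brighter probe of Mapk8ip2, a scaffold gene of JNK signalling, read 6.61 and 6.58 in knockout tumours and 6.52 and 6.57 in wild-type tumours. Arsa, which encodes the lysosomal enzyme arylsulfatase A, read 10.07 and 10.35 in knockout tumours and 10.13 and 9.70 in wild-type tumours at its brighter probe. That probe differed by 0.29 ± 0.20 and its dimmer probe by -0.22 ± 0.11. The synaptic scaffold gene Shank3 differed by -0.06 ± 0.11 and 0.22 ± 0.12. On the Cpt1b side, the thymidine phosphorylase gene Tymp differed by -0.06 ± 0.20 and the brighter Odf3b probe by -0.20 ± 0.10. All of these but the brighter Arsa probe are close to the floor, where a difference would be compressed.

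**Figure D3:**
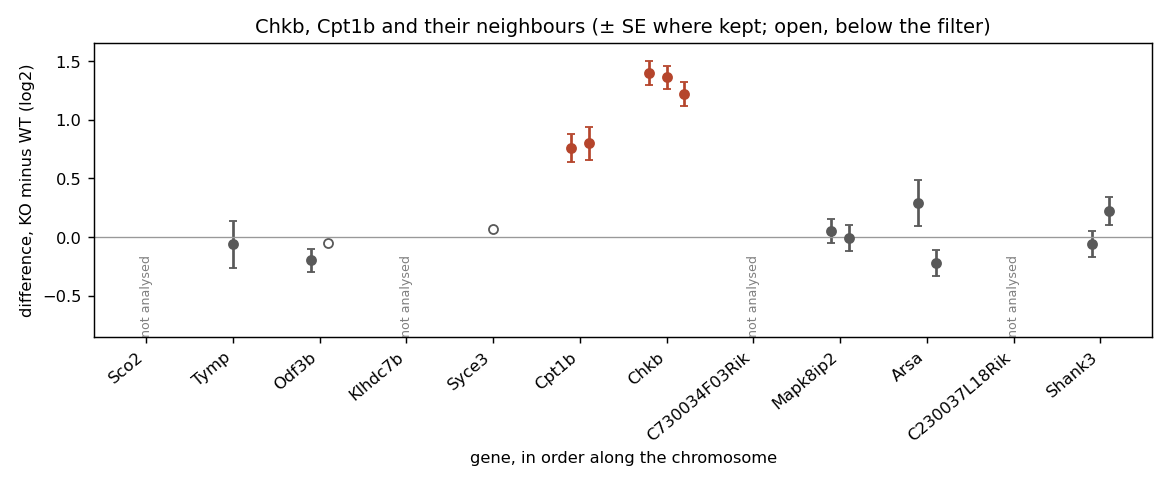
Difference, knockout minus wild type (vertical axis, log2), for Cpt1b and Chkb (red) and the 5 annotated genes on each side (grey), in chromosomal order and not to scale; bars are the SE of kept probes and open points lie below the filter. The Chkb and Cpt1b probes lie between 0.76 and 1.40, and the kept neighbours between -0.22 and 0.29.

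The rest of lipid metabolism was read through 7 lists of 93 genes in all, of which 80 were kept, each at its probe of highest mean. Of these, 0 passed at an adjusted p under 0.05 (smallest 0.113), 7 were higher and 11 lower at an unadjusted limma p under 0.05. As shares, 8.75% were higher and 13.8% lower, against 10.5% and 10.0% of all 13231 kept genes. Their median difference was -0.07, against -0.03 for all genes, and the medians of 6 of the 7 lists changed sign under median scaling. None of the values that follow passed after adjustment. Of the 21 genes with the widest differences, 3 per list, 21 kept their sign when any 1 array was left out, but 13 moved by over 1.5 times. The kept signs are no support, since these genes were picked for wide differences on the same arrays. Where the groups do not overlap, leaving out 1 array cannot change a sign.

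Other head group enzymes (9 kept) had a median difference of -0.24, with 1 gene higher and 2 lower at an unadjusted p under 0.05. Ptdss2, which makes phosphatidylserine from phosphatidylethanolamine, read 8.56 and 8.65 in knockout tumours and 9.36 and 9.28 in wild-type tumours, a difference of -0.71 ± 0.10, and its second probe differed by 0.07. Selenoi, the ethanolamine phosphotransferase that follows Pcyt2, read 8.39 and 8.46 in knockout tumours and 8.85 and 9.01 in wild-type tumours, a difference of -0.51 ± 0.11. Pemt, which methylates phosphatidylethanolamine to phosphatidylcholine mainly in liver, differed by -0.46 ± 0.20. In the ethanolamine branch, then, the activating enzyme gene Pcyt2 and the next enzyme gene Selenoi had differences of opposite sign. That of Selenoi was only -0.10 under median scaling and -0.32 under 75th percentile scaling.

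Choline and ethanolamine uptake genes (8 kept) had a median of -0.10, with 0 higher and 1 lower at an unadjusted p under 0.05. That gene was Slc44a3, of the choline transporter-like family (-0.52 ± 0.16). Its relative Slc44a2 differed by 0.42 ± 0.22, with 0.23 and 0.17 at other probes, and did not pass. Slc44a1 differed by -0.28 ± 0.15 at its brightest probe (0.04 under median scaling), which did not pass. Its second probe, at -0.41 ± 0.15, was lower at an unadjusted limma p under 0.05, and another differed by 0.04.

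Diacylglycerol supply (16 kept, median -0.06) had 2 genes higher and 1 lower at an unadjusted p under 0.05. Dgat1, which converts diacylglycerol to triglyceride and so draws on the same substrate as Cept1, read 9.72 and 9.74 in knockout tumours and 9.03 and 8.97 in wild-type tumours, a difference of 0.73 ± 0.10. Dgat2, a second enzyme of that step, differed by 0.69 ± 0.33, with knockout replicate 1 at 8.69 and replicate 2 at 7.81, against 7.73 and 7.38 in wild-type tumours, and by 0.25 without knockout replicate 1. Agpat2, which makes phosphatidic acid, differed by -0.58 ± 0.18, and its second probe differed by -0.04. The branch that goes through CDP-diacylglycerol to the mitochondrial lipid cardiolipin and to phosphatidylinositol (7 kept, median -0.05) had 1 gene higher and 1 lower. These were Pgs1 (0.94 ± 0.23, with 0.29 and 0.12 at other probes) and Ptpmt1 (-0.65 ± 0.21, with 0.24 at another probe), consecutive enzymes of cardiolipin synthesis. Cds1, which makes CDP-diacylglycerol, read 7.80 and 6.87 in knockout tumours and 6.52 and 6.51 in wild-type tumours, a difference of 0.82 ± 0.32. It was highest on knockout replicate 1, and without that array the difference was 0.36. Without wild-type replicate 3, Ptpmt1 differed by -0.37.

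Acyl chain remodelling genes (7 kept, median -0.27) had 0 higher and 0 lower at an unadjusted p under 0.05. The lysophosphatidylcholine acyltransferase genes Lpcat2 (-0.43 ± 0.22), Lpcat3 (-0.39 ± 0.26) and Lpcat1 (-0.37 ± 0.21) had the widest differences of the list. Lpcat3 was at 0.05 under median scaling and at -0.03 without knockout replicate 1. Without wild-type replicate 3, Lpcat2 differed by -0.20 and Lpcat1 by -0.14, and the second Lpcat2 probe differed by 0.08 ± 0.38. Breakdown and choline use (14 kept, median -0.04) had 1 higher and 1 lower. Pnpla6, the neuropathy target esterase that deacylates phosphatidylcholine, read 8.85 and 8.15 in knockout tumours and 7.24 and 6.94 in wild-type tumours, a difference of 1.41 ± 0.27. Gdpd1, a glycerophosphodiesterase-family gene, differed by -0.73 ± 0.17. Enpp6, a choline-releasing phosphodiesterase gene, differed by -0.66 ± 0.32, with wild-type replicate 2 at 7.38 and the other arrays between 6.21 and 6.47.

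The genes that work beside Cpt1b in the carnitine shuttle and in fatty acid oxidation (19 kept) had a median of -0.01. At an unadjusted limma p under 0.05, 2 were higher and 5 lower, where 10.5% and 10.0% of all kept genes were. Acaa2, a thiolase of mitochondrial oxidation, read 9.83 and 9.75 in knockout tumours and 10.52 and 10.47 in wild-type tumours, a difference of -0.71 ± 0.10, with 0.06 and -0.15 at other probes. Mlycd, which removes malonyl-CoA, the inhibitor of the Cpt1 enzymes, differed by -0.77 ± 0.27. Ppargc1a, a coactivator of mitochondrial genes, differed by 0.80 ± 0.33, at 9.15 and 10.06 in knockout tumours against 8.90 and 8.71 in wild-type tumours, and by 0.34 without knockout replicate 2. The list thus held differences of both signs beside that of Cpt1b, 9 above 0 and 10 below.

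**Figure D4:**
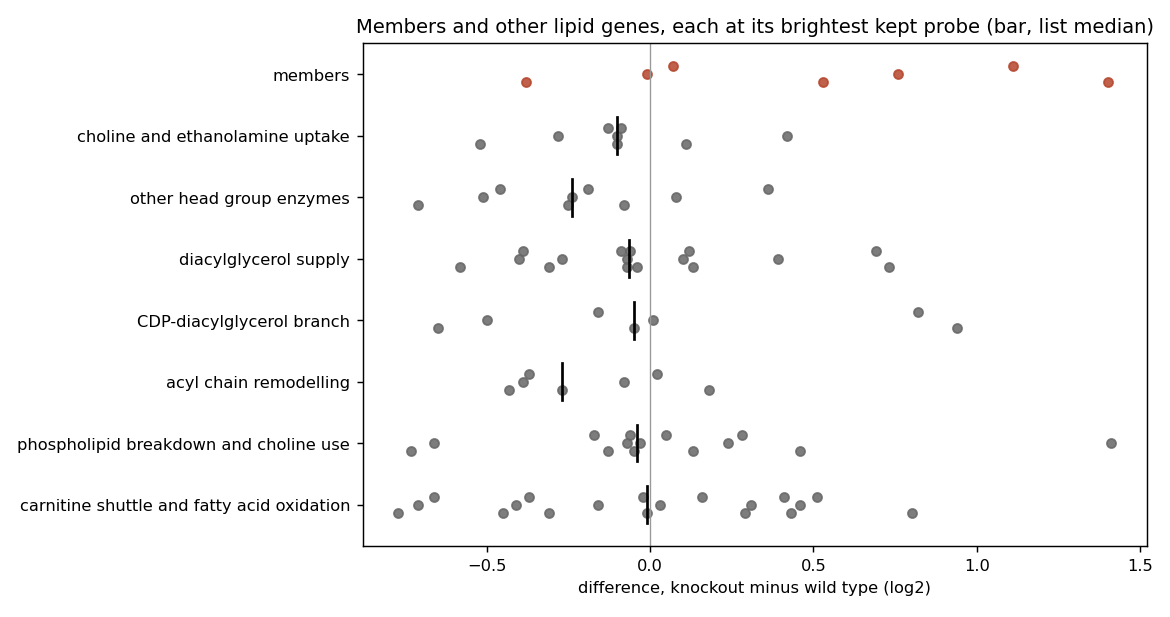
Difference, knockout minus wild type (horizontal axis, log2), of the 7 described genes (red, top row) and of the genes of 7 other lipid lists (grey), each at its brightest kept probe; bars are list medians. The list medians lie between -0.27 and -0.01, and the Chkb and Pcyt2 points at 1.40 and 1.11.

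Markers of other cell types were read on the same arrays. Of 16 kept skeletal muscle genes, 13 had a higher mean in the knockout, as did 45.9% of all kept genes. At an unadjusted p under 0.05, 4 of the 16 were higher and 0 lower, against 10.5% and 10.0% of all kept genes, and their median difference was 0.53. Their summed log2 level ran from 126.47 to 137.73 over the knockout arrays and from 121.27 to 123.69 over the wild-type arrays. The fast-muscle troponin genes Tnni2 (11.40 and 9.97 in knockout tumours, 9.40 and 9.99 in wild-type tumours) and Tnnc2 (10.70 and 9.41, against 8.94 and 9.07) were highest on knockout replicate 1, as was the actin gene Acta1 (11.44 and 11.20, against 11.11 and 10.51). Of 10 kept keratinocyte genes, 9 had a higher mean in the knockout, but only Krt1 was higher at an unadjusted p under 0.05 (1 of 10, close to the 10.5% of all kept genes). Their summed level ran from 82.72 to 96.07 over the knockout arrays and from 78.69 to 80.46 over the wild-type arrays, with a median difference of 1.06. Krt14, a keratin of the basal epidermis, read 13.19 and 12.27 in knockout tumours and 12.20 and 12.11 in wild-type tumours, and Lor and Sbsn of the upper epidermis differed by 2.12 ± 0.82 and 1.23 ± 0.61. The 3 muscle genes with a lower mean, the myosin genes Myh1 (-0.09), Myh2 (-0.07) and Myh4 (-0.07), lay close to the floor. Background-corrected arrays do not reach 0, so a level above 0 does not tell that a marker was expressed.

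Chkb, Pcyt2 and Cpt1b were high on both knockout arrays. Above the wild-type mean, the muscle list had a median of 0.72 on knockout replicate 1 and of 0.28 on replicate 2, and the keratinocyte list 1.68 and 0.25. The granulocyte list was below the wild-type mean on both, at -1.66 and -1.28, as was the erythroid list, at -0.85 and -1.96. Chkb at its brightest probe stood 1.42 above the wild-type mean on knockout replicate 1 and 1.37 on replicate 2, and Pcyt2 1.11 on both. Cpt1b stood 0.84 and 0.68 above at its brighter probe and 0.95 and 0.65 at its dimmer probe. Without knockout replicate 1 the differences were 1.37, 1.37 and 1.23 for Chkb, 1.11 and 0.82 for Pcyt2, and 0.68 and 0.65 for Cpt1b.

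The 6 kept adipocyte genes overlapped between groups in summed level (38.62 to 40.72 over the knockout arrays, 37.65 to 39.16 over the wild-type arrays), with a median difference of 0.20. The melanocyte list (7 kept) had a median difference of 0.08, with 6 genes above 0. Its 1 gene higher at an unadjusted p under 0.05 was Sox10 (0.84 ± 0.20), a transcription factor of the lineage, and 0 were lower. A second probe of Dct differed by 0.44, one of Pmel by 0.83 and further probes of Tyrp1 by 0.79 and 0.36. In the other direction, Tyr differed by -0.50 ± 0.23 and a second Mitf probe by -0.73. Endothelial genes (5 kept, median -0.36), macrophage genes (3 kept, -0.27), granulocyte genes (4 kept, -1.47) and erythroid genes (4 kept, -1.44) had medians below 0, and the first 2 of these lists had medians of 0.03 and 0.16 under median scaling. At an unadjusted p under 0.05, 2 endothelial, 1 macrophage, 3 granulocyte and 4 erythroid genes were lower, where 10.0% of all kept genes were, and 0 were higher. The part of these cell types in the values of the lipid genes was not tested.

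**Figure D5:**
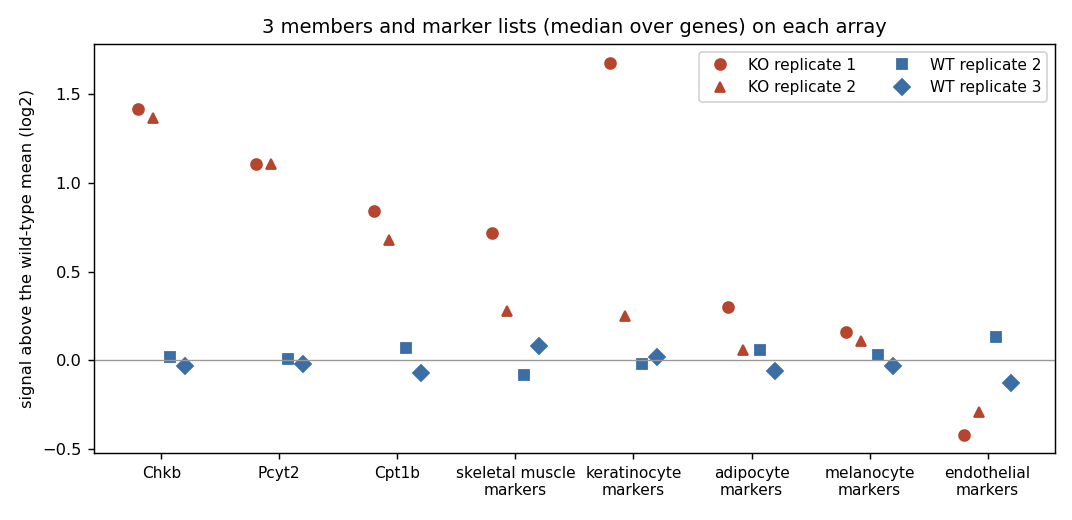
Signal above the wild-type mean (vertical axis, log2) on each array for the brightest probes of Chkb, Pcyt2 and Cpt1b and for the median gene of 5 marker lists; red symbols are the KO arrays and blue symbols the WT arrays. The KO arrays lie within 0.05 of each other for Chkb, while KO replicate 1 stands 1.68 and KO replicate 2 stands 0.25 above wild type for keratinocyte genes.

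Some other genes had an array pattern close to that of Chkb. Likeness was measured as the Euclidean distance between log2 signals, each centred on its mean over the 4 arrays, at the brightest kept probe. The closest genes outside the members were Trim39, a ubiquitin ligase gene (distance 0.0694), Rapgef3, a cyclic AMP-activated exchange factor for Rap (0.0732), Ttll3, a tubulin glycylase (0.0853), and Rbm5, a splicing regulator (0.0973). Rapgef3 read 10.16 and 10.19 in knockout tumours and 8.85 and 8.74 in wild-type tumours. Of 13224 candidate genes, 37 lay within 0.25 of Chkb, and 52 lay closer to it than the brighter Pcyt2 probe (0.291). The closest to Cpt1b were Gps2 (0.0229), a subunit of a corepressor complex, the laminin gene Lamb2 (0.0325), Car3 (0.0537), a carbonic anhydrase of muscle and fat, and Ppp1r12a (0.0570), a subunit of myosin phosphatase. Within 0.25 of Cpt1b lay 329 genes, and Chkb at its brightest probe, at 0.648, was farther from it than 3588 genes. With 4 arrays such a distance is set almost wholly by the size of the difference between groups.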

How the data were processed

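Per the labels' protocols, 100 ng of total RNA per tumour was amplified and biotin labelled with 14 h of in vitro transcription. The deposited unnormalized table holds bead-summarised intensity on a linear scale, without detection p-values. The authors' processed table holds intensity whose columns share their quantiles, as quantile normalization gives. The labels name no scanner software, summarisation, slide or scan date, so no batch could be tested.

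Rows were paired through their 4 values within 0.001 (log2): all 46632 processed probes found 1 partner. The platform annotation gave 1 symbol to 29976 probes, several to 10 and none to 16646, and 29921 gene IDs were in the RefSeq table. Intensities were background corrected (normexp, offset 50), log2 transformed and quantile normalized, and tested with limma 3.58.1 (R 4.3.3; lmFit, eBayes, two-sided, Benjamini-Hochberg over 27979 probes, 2 residual and 2.49 prior degrees of freedom). Tables were made with Python 3.11.15. The fit was also run on data simulated from its own variance prior, which checks the code and not how well the model suits these arrays. Replicates are separate mice by label, and 4 arrays limit every value's precision.

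Members and lists were chosen with earlier results of these data known. Named genes are all member probes, Aoc3, the 3 widest differences per lipid list, the 3 brightest genes per marker list, kept neighbours, and the 4 genes nearest Chkb and Cpt1b. Marker lists other than muscle, keratinocyte and melanocyte are given by counts, and their genes named only where a sign changed. Krt1, Sox10, Tyr, Tyrp1, Mitf, Myh1, Myh2 and Myh4 were named after their values were seen. Alternatives changed the offset, scaling, filter, moderation or left out an array.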

Additional observations from a re-analysis of the deposited data

How the results depend on the processing

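The Chkb, Pcyt2 and Cpt1b probes were higher in the knockout under every alternative run. That is no test, since the genes were chosen by this contrast and the filter and moderation do not alter a difference. Both knockout arrays lay above both wild-type arrays on each of these probes, so leaving out 1 array could not change the sign. At the brightest probe, Chkb differed by 1.45 with the smaller offset, 1.70 under median scaling and 1.47 under 75th percentile scaling, and by 1.37 to 1.43 without any 1 array. Pcyt2 differed by 1.26, 1.52 and 1.29 under these settings, by 1.15 in the authors' processed table and by 1.10 to 1.12 without any 1 array. Cpt1b differed by 1.00 with the smaller offset, 1.05 under median scaling and 0.68 to 0.84 without any 1 array. Median scaling moved the median of all kept probes to 0.08 and 75th percentile scaling to -0.14, from -0.02. The RefSeq mRNA probe of Chka was at -0.06 under 75th percentile scaling. Over the other member probes and the alternatives that can move a difference (offset, scaling, table, array left out), 68 values moved by less than the spread between replicates and 19 by more.

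The count of probes at an adjusted p under 0.05 was 4 when the prior was robust and followed intensity, and 0 to 1700 without any 1 array: 1700 without wild-type replicate 2, 877 without wild-type replicate 3, where the lone array is assumed to vary like the closer knockout pair. At an unadjusted p under 0.05, median scaling gave 4487 higher and 103 lower probes, and the filter at the 70th percentile gave 1666 higher and 1398 lower of 13990 probes tested, fewer than the 27979 of the main count. Without any 1 array there were 1187 to 3426 higher and 589 to 3536 lower.

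List medians changed sign under median scaling for uptake (0.06), diacylglycerol supply (0.13), the CDP-diacylglycerol branch (0.10), remodelling (0.06), breakdown (0.20) and fatty acid oxidation (0.05). Breakdown also did so with the 70th percentile filter (0.11), without wild-type replicate 3 (0.04) and when knockout replicate 1 was left out (0.04). The CDP-diacylglycerol branch did so without wild-type replicate 3 (0.02). Fatty acid oxidation, at -0.01 in the main fit, was at 0.16 with the 70th percentile filter. Its median was 0.07 once knockout replicate 1 was dropped, and 0.06 once wild-type replicate 3 was dropped. Under median scaling Slc44a1 (0.04), Lpcat3 (0.05), Pecam1 (0.03), Adgre1 (0.16) and C1qa (0.01) changed sign, as did Mapk8ip2 (-0.03) under 75th percentile scaling. So did the brighter Aoc3 probe under median scaling, at -0.37 ± 0.29 in the main fit and 0.02 there. The small differences of the brighter Shank3 probe (0.09) and of Tymp (0.05) also changed sign under median scaling. Dct did so (-0.01) under 75th percentile scaling. Among the members, the brighter Pcyt1a probe changed sign in 4 of 11 alternatives, the dimmest Chka probe in 2 of 10 and Cept1 in 1 of 11. The cause was not tested. No paired analysis was possible because the labels pair no knockout mouse with a wild-type mouse. Dim probes limit the values of Chka, Etnk1 and most neighbours.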
